A study of Homo sapiens with 4 samples.

Results

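The potassium channel genes of SK-N-BE(2) cells, a human neuroblastoma line with amplified MYCN, were compared between cells that carried a short hairpin RNA against TTC8 (shTTC8) and cells that carried a scramble hairpin (shScb). TTC8 encodes a subunit of the BBSome, a protein complex that sorts cargo at the primary cilium. All cells were of the same line, each group held 2 libraries of RNA sequencing, and the labels name no treatment besides the hairpin. They do not give the number of hairpins or clones, so effects of lowered TTC8 and off-target effects of a hairpin cannot be told apart. The members were the protein-coding genes whose symbol starts with KCN, without antisense or read-through genes, and they numbered 96 of 64252 gene IDs in the table.

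Potassium channels let potassium leave or enter a cell along its gradient and so set the resting potential and end the action potential. Voltage-gated (Kv) channels open on depolarisation, tandem pore domain (K2P) channels carry background leak current, inward rectifiers (Kir) hold the membrane near the potassium equilibrium potential, and calcium- or sodium-activated channels open on ion entry. Pore-forming subunits assemble with silent Kv subunits, which form no channel of their own, and with accessory subunits that alter gating and traffic. In neuroblastoma cells the ether-a-go-go related channel of KCNH2 is known to carry potassium current.

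The pore of these channels is lined by a selectivity filter, a short stretch that most pore-forming members share and accessory subunits lack. It was looked for in the longest GENCODE 29 coding sequence of each member as an in-frame pattern of 5 codons, any codon followed by NTN, GGN, TNN and GGN. The pattern occurred in all 30 Kv pore genes, all 10 silent Kv genes and all 16 KCNJ genes. It was present in 13 of 15 KCNK genes, of which 11 held it at 2 places. Of the calcium- and sodium-activated class 8 of 12 genes held it, and of the Kv accessory genes 0 of 13. All 5 KCNQ genes, 2 KCNH genes and 1 KCNN gene also held it at 2 places, so 2 matches do not mark a tandem pore domain channel. KCNK1 and KCNK7 were the KCNK genes without it, and a missing match does not show that a filter is absent. Of all 19528 protein-coding genes with such a sequence, 10.6% held it, so a match alone does not mark a channel. The stretches below belong to the members that the results turn on, with the matched codons in capitals, 6 bases before and 9 after. They come from GENCODE 29 transcripts, and positions count from the first base of the coding sequence.
KCNK2, first match, from 469: attacaACCATAGGATTTGGAaacatctca
KCNK2, second match, from 796: ctaacaACTATTGGATTTGGTgactacgtt
KCNK10, first match, from 514: attacgACCATAGGGTATGGGaatattgct
KCNK10, second match, from 841: ctgaccACGGTGGGCTTTGGTgattttgtg
KCNMA1, from 1054: atgtccACCGTTGGTTATGGGgatgtttat
KCNG1, from 1270: atgacgACGGTGGGCTATGGCgacatggtc
KCNH1, from 1387: ctcaccAGTGTGGGCTTTGGGaacatcgcc
KCNH5, from 1294: cttacaACCATAGGATTTGGAaacatagct
KCNJ8, from 418: caagttACCATTGGGTTTGGAgggaggatg

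Total counts were 38284663 and 40863047 in the shTTC8 libraries and 51168727 and 55331449 in the shScb libraries. TTC8 itself stood at 29.1 and 30.6 CPM (counts scaled by TMM-adjusted library size) in shTTC8, against 196 and 191 CPM in shScb (log2 fold change -2.70, SE 0.07, edgeR adjusted p = 5.38e-12). All 12 markers of sympathetic neuroblastoma cells passed the low-count filter, of which 2 were higher and 9 lower in shTTC8. Of the lower ones, TH stood at 446 and 426 CPM in shTTC8 and at 548 and 574 CPM in shScb. DBH, also lower, stood at 137 and 132 CPM in shTTC8 and at 228 and 241 CPM in shScb. The 2 higher ones were CHGB and ISL1, with CHGB at 1472 and 1485 CPM in shTTC8 and at 543 and 566 CPM in shScb. Of 10 fibroblast and endothelial markers, 6 were tested and all 6 were lower in shTTC8. Their summed level was 73.9 to 75.2 CPM in shTTC8 and 271 to 284 CPM in shScb, mostly from LUM, DCN and PDGFRA, and the endothelial marker PECAM1 was at 0 in every library. Schwann cell and glia markers summed to 14.7 to 16.1 CPM in shTTC8 and 37.2 to 39.0 CPM in shScb, mostly from NGFR, the 1 of 6 tested that was called, with SOX10 at 0 throughout. Epithelial and blood markers summed to 10.9 CPM in both shTTC8 libraries and 23.7 to 24.3 CPM in shScb, with CDH1 and HBB at 0. Of their 6 tested markers, PTPRC and KRT19 were lower and the other 4 were not called, and PTPRC, at 3.27 CPM in shTTC8 and 15.4 CPM in shScb, made most of the difference. Smooth muscle and heart markers summed to at most 1.4 CPM in any library, with MYH6 at 0 and overlapping groups, and MYH11 and NPPA, which were tested, were not called. The sums of the other lists differed between the groups, and their part in the potassium channel results was not tested.

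Of the 96 members, 59 passed the low-count filter. Of those, 16 were higher and 9 lower in shTTC8 by the quasi-likelihood test of edgeR, at a Benjamini-Hochberg adjusted p under 0.05 over all 19610 genes tested. The called share was 42.4%, beside a background of 31.9% over all tested genes and 39.2% over tested protein-coding genes. By direction, 27.1% of the tested members were higher, beside 15.2% of all tested genes and 18.6% of protein-coding ones. A share of 15.3% was lower, beside 16.7% and 20.6%. The median log2 fold change of the tested members, shTTC8 over shScb, was 0.18, and that of all tested genes was 0.0035. The values of the groups did not overlap for 38 of the 59, a share of 64.4% beside 65.5% of all tested genes and 71.1% of protein-coding ones. Among tested members with a mean of at least 5 CPM over the 4 libraries, 19 of 24 were called, or 79.2%, beside 43.2% of all tested genes at that level (20.4% higher and 22.8% lower). By at least 2-fold, 6 members were higher, beside 2.39% of all tested genes and 2.49% of protein-coding ones, and 3 were lower, beside 2.91% and 3.07%. Whether same-group libraries stem from separate cultures is not stated in the labels; p-values here reflect the spread among these 4 libraries, which may be technical.

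**Figure D1:**
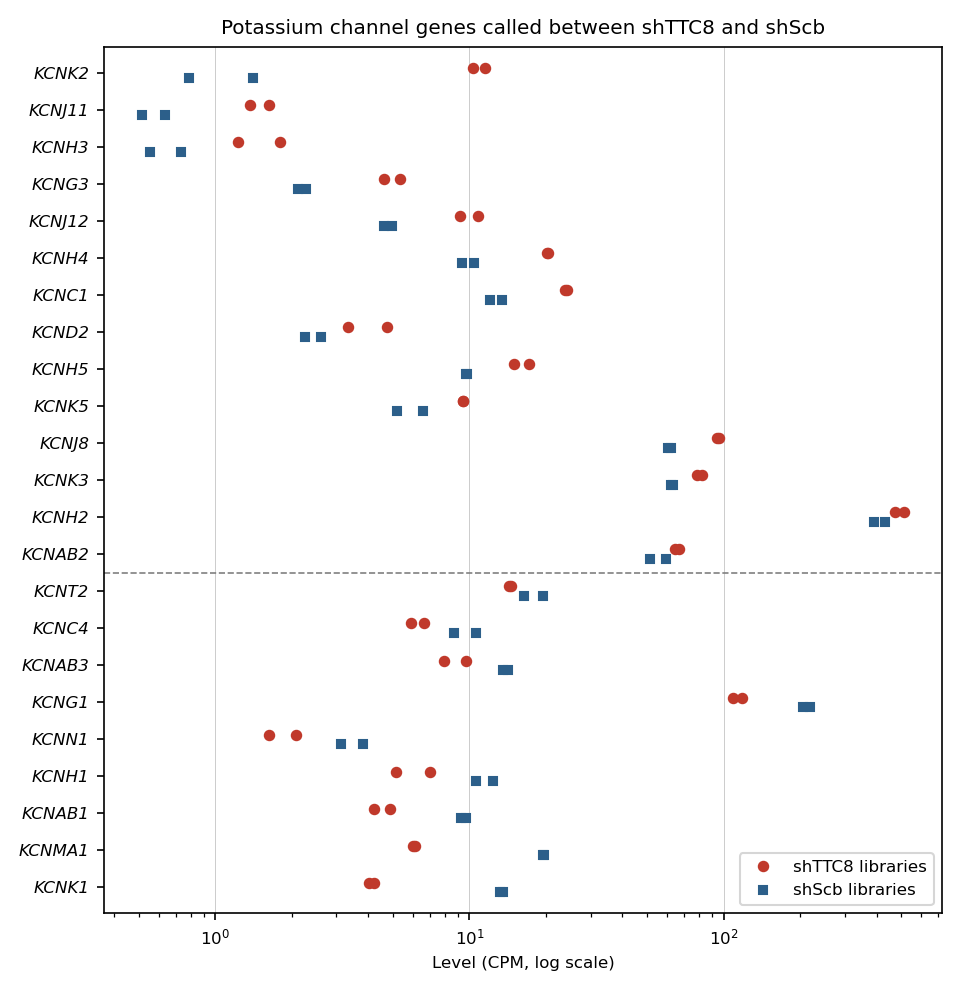
Level of 23 called potassium channel genes in CPM (log scale), with 1 point per library, shTTC8 as circles and shScb as squares, and 14 higher genes above the dashed line and 9 lower ones beneath it. For every gene shown, both circles lie on the same side of both squares, and KCNK2 has the widest gap.

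Levels between genes were compared as CPM per kilobase of exonic length, the union of all annotated exons. On that scale KCNH2 was the most abundant member, at 83.8 ± 4.62 in shTTC8 and 69.8 ± 4.73 in shScb (SD, n = 2). KCNJ8 stood at 38.2 ± 0.350 in shTTC8 and 24.7 ± 0.469 in shScb, whereas KCNG1 stood at 20.9 ± 1.26 in shTTC8 and 39.1 ± 1.84 in shScb. On this scale the order of these neighbours turned between the groups: KCNJ8 exceeded KCNG1 in both shTTC8 libraries, and KCNG1 exceeded KCNJ8 in both shScb libraries. KCNK3 had a lower level per kilobase than either, with means of 12.9 in shTTC8 and 10.1 in shScb. With the length of the transcript that has the longest coding sequence in place of all exons, that turn was not seen. KCNG1 then stood at 53.6 and 49.2 per kilobase in shTTC8 and 92.9 and 99.3 in shScb, above KCNJ8 at 40.0 and 39.5 in shTTC8 and 25.4 and 26.05 in shScb. KCNH2 was at 119 and 110 in shTTC8 and at 91.1 and 100.2 in shScb on that length. It overlapped KCNG1 in shScb and stood above it in shTTC8.

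**Figure D2:**
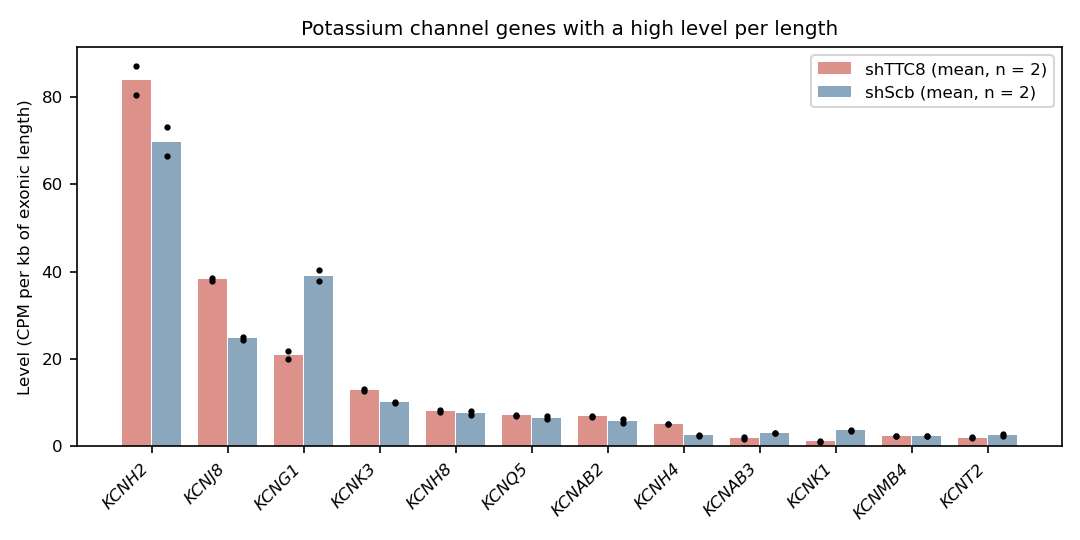
Level in CPM per kilobase of exonic length of 12 members with a high mean over the 4 libraries, with bars for the mean of 2 libraries and dots for single libraries, shTTC8 left of shScb. KCNH2 is highest in both groups, and KCNG1, KCNAB3, KCNK1 and KCNT2 are the called genes with the lower bar in shTTC8.

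Summed over all 96 members, the level per kilobase was 239 and 231 in shTTC8 and 206 and 214 in shScb. Silent Kv subunits, chiefly KCNG1, made up 9.93% and 9.56% of that sum in shTTC8, against 19.1% and 19.5% in shScb. Inward rectifiers made up 17.3% and 17.8% in shTTC8, against 12.7% and 12.4% in shScb. Voltage-gated pore genes held 55.3% and 54.8% in shTTC8 and 49.4% and 49.97% in shScb. The groups did not overlap in any of these shares, which were computed on exonic length alone. They are given without a test, since with 2 libraries a group an exact permutation test cannot go below p = 0.333.

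The largest change among the tested members was that of KCNK2, which encodes TREK-1, a K2P leak channel opened by stretch, fatty acids and heat. KCNK2 (ENSG00000082482, chromosome 1, 215005775 to 215237093, GRCh38, plus strand) had 448 and 429 counts in shTTC8, against 71 and 43 counts in shScb. As CPM this was 11.5 and 10.4 in shTTC8 and 1.40 and 0.791 in shScb, so that the shScb libraries differed from each other by more than the shTTC8 libraries did in relative terms. Its log2 fold change was 3.32 (SE 0.24, edgeR adjusted p = 5.32e-07), a 9.99-fold rise. Over 11 alternative analyses it ranged from 2.96 to 3.78.

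KCNK10, which encodes TREK-2, stood at 1.21 and 1.30 CPM in shTTC8 and 1.37 and 1.64 CPM in shScb without a call (log2 fold change -0.26, SE 0.29; adjusted p = 0.557 by edgeR). KCNK4, the TRAAK gene, had 11 counts over the 4 libraries and was not tested. Per kilobase, the ratio of KCNK2 to KCNK10 was 20.1 and 16.8 in shTTC8 and 2.17 and 1.02 in shScb.

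KCNK1, which encodes the weakly active leak channel TWIK-1, moved the opposite way. It fell to 4.22 and 4.01 CPM in shTTC8, against 13.6 and 13.2 CPM in shScb (log2 fold change -1.70, SE 0.14, edgeR adjusted p = 3.51e-07), which left 0.307 of the shScb level. KCNK1 (ENSG00000135750) lies on chromosome 1, from 233614004 to 233672512 on the plus strand in GRCh38. The acid-sensitive leak channel gene KCNK3 (TASK-1), the most abundant K2P member, rose to 78.3 and 82.4 CPM in shTTC8, against 63.0 and 62.3 CPM in shScb (log2 fold change 0.36, SE 0.07). KCNK5, which encodes the alkaline-sensitive TASK-2, had 9.40 CPM in each shTTC8 library, against 5.18 and 6.57 CPM in shScb (log2 fold change 0.68, SE 0.15). In all, 3 of the 10 tested K2P genes were higher and 1 was lower. KCNK12, a silent K2P subunit, was at 4.99 and 4.06 CPM in shTTC8 and 3.58 and 3.27 CPM in shScb and was not called. The other 5 uncalled genes had means under 2 CPM in both groups.

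The promoters of the genes with the widest changes are shown for their base composition. Each line gives 300 bases from RefSeq (GRCh38.p14), from 250 before the annotated start to 50 after it, written along the gene's own strand, with every GGGCGG in either orientation (the GC box, a binding sequence of SP1-type factors) in capitals.
KCNK2, chr1:215005292-215005591, plus strand: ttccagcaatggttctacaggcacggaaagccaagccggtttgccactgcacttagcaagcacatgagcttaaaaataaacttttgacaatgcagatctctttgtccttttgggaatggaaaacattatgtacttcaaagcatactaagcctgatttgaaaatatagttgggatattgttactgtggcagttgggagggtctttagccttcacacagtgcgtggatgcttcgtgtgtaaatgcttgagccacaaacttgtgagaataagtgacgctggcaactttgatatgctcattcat
KCNMA1, chr10:77637759-77638058, minus strand: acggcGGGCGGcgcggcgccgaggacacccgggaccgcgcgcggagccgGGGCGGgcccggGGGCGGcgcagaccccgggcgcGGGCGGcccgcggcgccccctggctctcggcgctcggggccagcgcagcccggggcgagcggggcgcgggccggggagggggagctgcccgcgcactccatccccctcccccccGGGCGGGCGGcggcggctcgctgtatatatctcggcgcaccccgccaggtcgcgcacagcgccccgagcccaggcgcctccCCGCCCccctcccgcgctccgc
KCNK1, chr1:233613856-233614155, plus strand: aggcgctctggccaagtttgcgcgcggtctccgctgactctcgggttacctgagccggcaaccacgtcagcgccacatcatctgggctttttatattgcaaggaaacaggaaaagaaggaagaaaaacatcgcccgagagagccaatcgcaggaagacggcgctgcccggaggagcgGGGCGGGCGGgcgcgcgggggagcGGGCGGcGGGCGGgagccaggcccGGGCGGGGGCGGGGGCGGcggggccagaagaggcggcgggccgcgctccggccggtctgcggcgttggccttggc

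The RefSeq start of KCNK2 lies upstream of the GENCODE 29 gene start given above. Its window held 42.0% G and C, 5 CpG dinucleotides and 0 GC boxes. The KCNMA1 window held 85.7% G and C, 54 CpG and 7 GC boxes, some of which overlap, and the KCNK1 window held 70.7%, 38 CpG and 7 GC boxes. RefSeq promoter entries matched 72 of the 96 members, and 18 of the 25 called ones. The median content of G and C was 74.3% over the 11 higher members and 72.0% over the 7 lower ones, beside 67.0% over all tested members with an entry and 58.3% over all 27305 promoters. The set of all promoters was limited neither to protein-coding genes nor to tested ones, so it is unlike the called members in both respects. Single called windows were as low as 42.0% (KCNK2) and 43.7% (KCNAB1). A GC box was found in 9 of the 11 and 6 of the 7, beside 73.2% of the tested members, 65.2% of the uncalled ones and 44.6% of all promoters of that length. The E-box CACGTG, the sequence that MYC and MYCN bind, was searched for on either strand. It was found in 2 of the 11 higher members (KCND2 and KCNH4), 0 of the 7 lower ones and 1 of the 23 uncalled ones (KCNN4). That was 7.32% of the 41 tested members with an entry, beside 7.43% of all promoters. TTCAGCACC, the left part of the RE1 element that the repressor REST binds, was found in the windows of KCNK3 and KCNH6 and in 0.403% of all promoters. KCNK3 was called higher, and KCNH6 was not called. The right part of RE1 was also searched for, and was found in 0 of the 72 member windows and in 0.297% of all promoters. No member window therefore held both parts, and whether REST binds near these genes was not tested.

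**Figure D3:**
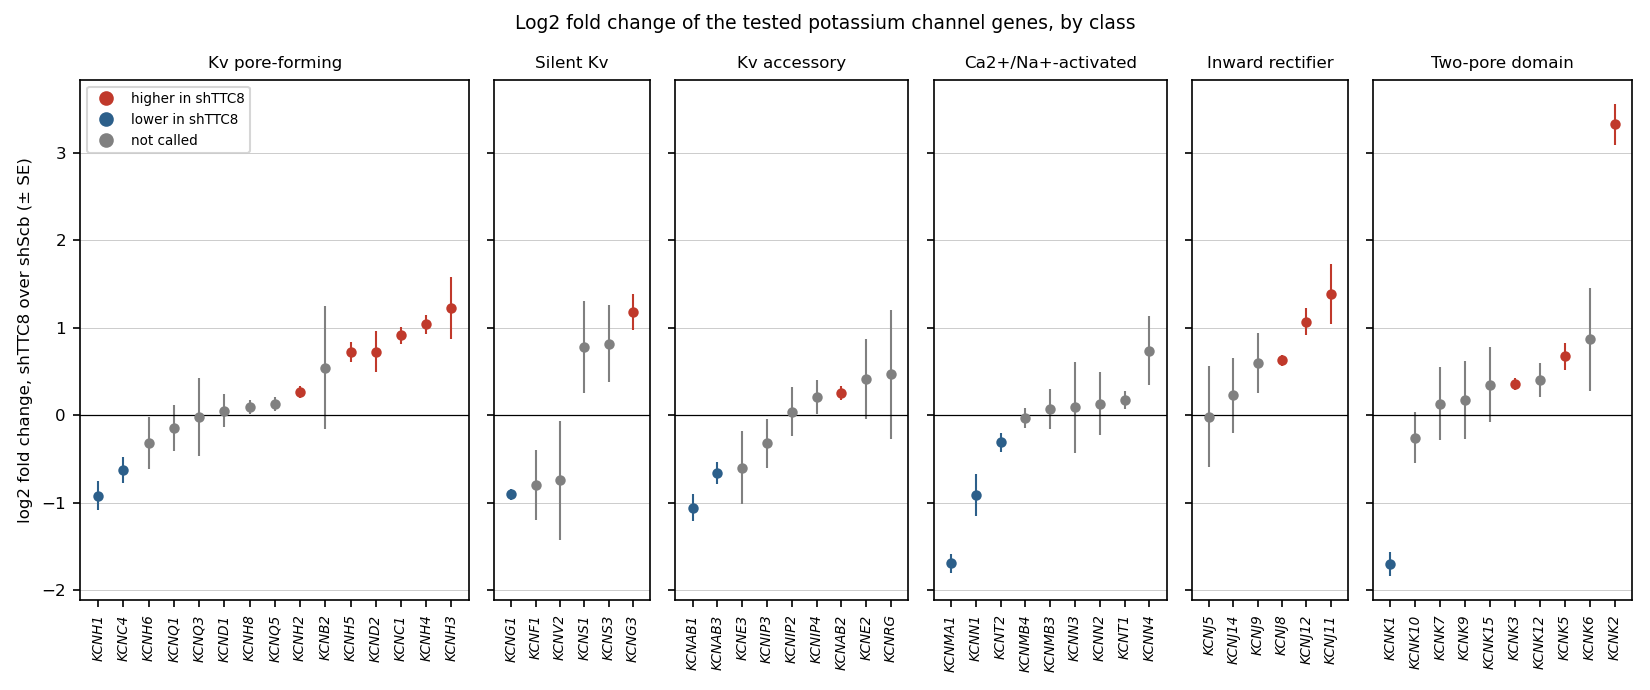
Log2 fold change of shTTC8 over shScb with its standard error for 55 of the 59 tested members, in 6 classes and ordered by size within each, coloured by edgeR call. KCNK2 stands highest at 3.32, the lowest points are KCNK1 and KCNMA1 near -1.70, and called genes of both directions occur in every class but the inward rectifiers, which had 3 higher and 0 lower, and the calcium- and sodium-activated class, which had 0 higher and 3 lower.

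Among voltage-gated pore genes, 8 of 19 tested were higher and 2 were lower. The KCNH genes, of the ether-a-go-go family, held 5 of those 10 calls. KCNH2, which encodes hERG, stood at 512 and 473 CPM in shTTC8, against 390 and 430 CPM in shScb (log2 fold change 0.27, SE 0.07, edgeR adjusted p = 0.0069). The rise of this abundant member was small, and it missed the threshold without shTTC8 replicate 1 (adjusted p = 0.145 by edgeR, within a range of 3.57e-06 to 0.145 over the alternatives). KCNH4, an ELK-type channel gene of the brain, was at 20.1 and 20.4 CPM in shTTC8, against 10.4 and 9.35 CPM in shScb (log2 fold change 1.04, SE 0.11, edgeR adjusted p = 4.04e-06). Its relative KCNH3 was at 1.80 and 1.23 CPM in shTTC8, against 0.554 and 0.736 CPM in shScb (log2 fold change 1.23, SE 0.35). KCNH3 missed the threshold without shTTC8 replicate 1 (adjusted p = 0.154), without shScb replicate 1 (0.0596) and with DESeq2 (0.0574), in a range of 0.0061 to 0.154 over the alternatives. It shares 14 exonic bases with MCRS1, an opposite-strand gene with 8676% of its counts. The third ELK gene, KCNH8, was at 48.9 and 51.2 CPM in shTTC8 and 49.6 and 44.5 CPM in shScb, with overlapping groups and no call.

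The paired ether-a-go-go genes moved in opposite directions. KCNH1, which encodes Eag1 and is expressed in many tumours, fell to 7.03 and 5.12 CPM in shTTC8, against 12.3 and 10.6 CPM in shScb (log2 fold change -0.92, SE 0.16, edgeR adjusted p = 6.02e-04). KCNH5, which encodes Eag2, rose to 14.96 and 17.2 CPM in shTTC8, against 9.69 and 9.75 CPM in shScb (log2 fold change 0.72, SE 0.12, edgeR adjusted p = 2.23e-04). Per kilobase, the ratio of KCNH5 to KCNH1 was 1.69 and 2.67 in the shTTC8 libraries and 0.625 and 0.733 in the shScb libraries, so the more abundant of the pair differed between the groups on that scale.

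A like split occurred in the KCNC genes, which encode the fast Kv3 channels of neurons that fire at high rates. KCNC1 (Kv3.1) rose to 24.1 and 23.7 CPM in shTTC8, against 12.01 and 13.4 CPM in shScb (log2 fold change 0.91, SE 0.10, edgeR adjusted p = 7.46e-06). KCNC4 (Kv3.4) fell to 6.62 and 5.92 CPM in shTTC8, against 8.70 and 10.6 CPM in shScb (log2 fold change -0.62, SE 0.15, edgeR adjusted p = 0.0053). KCNC2 had 0 counts in all 4 libraries. The ratio of KCNC1 to KCNC4 per kilobase of exonic length was 6.33 and 6.95 in shTTC8 and 2.40 and 2.195 in shScb. On the transcript with the longest coding sequence, KCNC1 stood at 5.62 and 5.52 per kilobase in shTTC8 and 2.80 and 3.12 in shScb. KCNC4 stood at 0.353 and 0.316 in shTTC8 and 0.464 and 0.565 in shScb. The size of the ratio therefore depends on the length used, whereas its change between the groups does not.

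**Figure D4:**
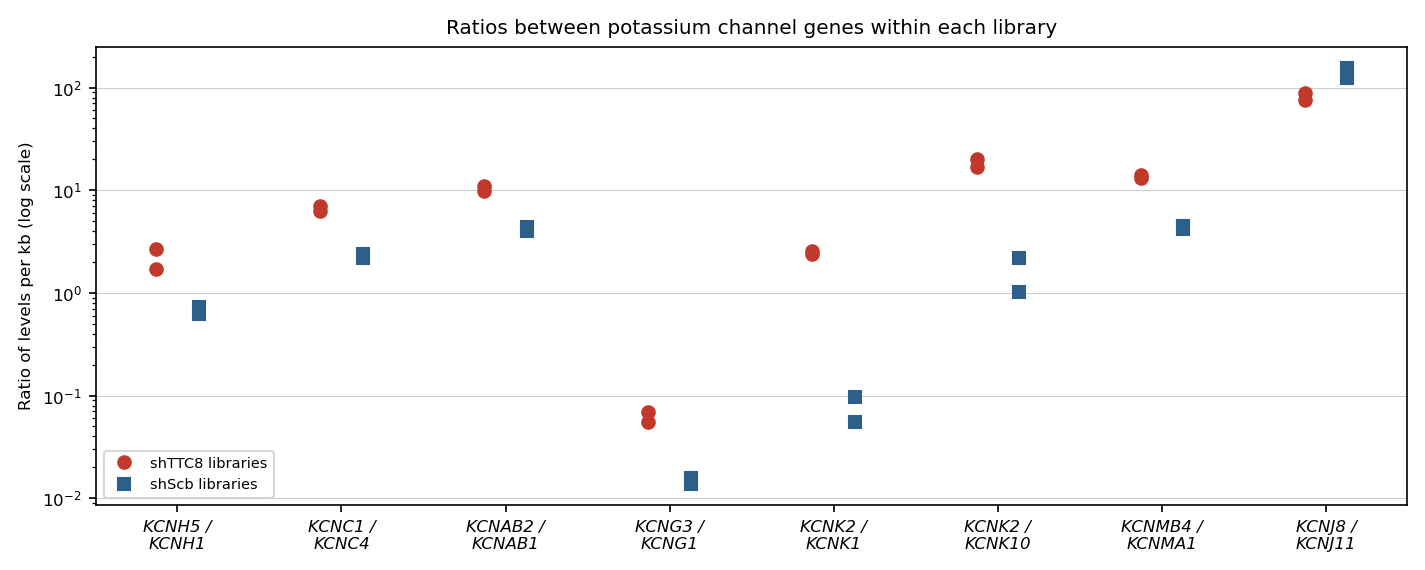
Ratio of 2 members' levels per kilobase within each library (log scale), with shTTC8 libraries as circles left of shScb libraries as squares. The size of each ratio depends on the exonic lengths used. The 8 pairs were chosen after their values were seen; the circles lie above the squares for all but KCNJ8 over KCNJ11, where they lie beneath them.

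KCNQ5 and KCNQ3 encode subunits of the M-current, a slow current that holds neurons back from repetitive firing. KCNQ3 was at 0.695 and 0.435 CPM in shTTC8 and 0.534 and 0.607 CPM in shScb, with no call. KCNQ5 was abundant at 54.99 and 53.5 CPM in shTTC8 and 52.2 and 46.8 CPM in shScb, with no call (log2 fold change 0.13, SE 0.08; adjusted p = 0.223 by edgeR, 0.0440 without shScb replicate 1 and 0.0440 to 0.678 over the alternatives). KCNQ1 had a mean near 2 CPM in both groups and was not called. KCND2, which encodes the A-type channel Kv4.2, stood at 4.74 and 3.33 CPM in shTTC8, against 2.61 and 2.26 CPM in shScb (log2 fold change 0.73, SE 0.23). That call was lost in 4 of 11 alternatives, among them without shTTC8 replicate 1 and without shScb replicate 2 (adjusted p = 0.0097 to 0.309).

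None of the 8 KCNA genes, the Shaker-type channels of axons, passed the filter. Their counts over the 4 libraries ran from 0 for KCNA10 to 35 for KCNA3, which shares this low level with KCNA6 at 34. KCNA6 lies within the annotated exons of GALNT8, so even those counts are uncertain.

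The silent Kv subunits held the most abundant gene to fall. KCNG1 (Kv6.1), which modifies other Kv channels when it assembles with them, fell to 119 and 109 CPM in shTTC8, against 205 and 220 CPM in shScb (log2 fold change -0.90, SE 0.07, edgeR adjusted p = 1.39e-07). KCNG1 (ENSG00000026559) lies on the minus strand of chromosome 20, from 51003656 to 51023129 in GRCh38. Its relative KCNG3 (Kv6.3) was rarer and rose to 4.63 and 5.31 CPM in shTTC8, against 2.28 and 2.12 CPM in shScb (log2 fold change 1.18, SE 0.20, edgeR adjusted p = 4.46e-04). The other 4 tested silent genes, KCNF1, KCNS1, KCNS3 and KCNV2, had means under 1 CPM in both groups and were not called.

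Of the accessory genes, the 3 that encode cytoplasmic beta subunits of Kv1 channels were all called. KCNAB1 fell to 4.89 and 4.23 CPM in shTTC8, against 9.28 and 9.70 CPM in shScb (log2 fold change -1.06, SE 0.15, edgeR adjusted p = 9.66e-05). KCNAB3 fell to 7.98 and 9.66 CPM in shTTC8, against 13.6 and 14.2 CPM in shScb (log2 fold change -0.65, SE 0.13, edgeR adjusted p = 0.0011). KCNAB2, the most abundant of them, was at 67.0 and 64.6 CPM in shTTC8, against 51.4 and 59.2 CPM in shScb (log2 fold change 0.25, SE 0.08, edgeR adjusted p = 0.0229). The KCNAB2 call was lost in 4 of 11 alternatives, including without shTTC8 replicate 1, shTTC8 replicate 2 or shScb replicate 1 (adjusted p = 7.13e-05 to 0.173), and KCNAB2 shares 111 exonic bases with NPHP4, which had 43.3% of its counts. The KCNA genes whose channels these subunits serve were those that did not pass the filter. No KCNE gene (2 tested) and no KCNIP gene (3 tested), which encode single-span and calcium-binding accessory subunits, was called.

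Calcium- and sodium-activated channel genes gave 3 lower and 0 higher of 9 tested. KCNMA1, the pore gene of the large-conductance BK channel, fell to 5.999 and 6.14 CPM in shTTC8, against 19.5 and 19.7 CPM in shScb (log2 fold change -1.69, SE 0.11, edgeR adjusted p = 6.39e-08), which left 0.309 of the shScb level. Replicates of KCNMA1 lay close together in both groups, and its log2 fold change ran from -1.72 to -1.65 over the alternatives. KCNMA1 (ENSG00000156113) lies on the minus strand of chromosome 10, from 76869601 to 77638369 in GRCh38. The neuronal BK beta subunit gene KCNMB4 stood at 11.5 and 11.1 CPM in shTTC8 and 11.99 and 11.2 CPM in shScb, with overlapping ranges and no call. Per kilobase, the ratio of KCNMB4 to KCNMA1 was 14.1 and 13.3 in shTTC8 and 4.49 and 4.16 in shScb.

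KCNN1, which encodes the small-conductance channel SK1, was at 1.62 and 2.08 CPM in shTTC8, against 3.82 and 3.13 CPM in shScb (log2 fold change -0.91, SE 0.24; adjusted p = 0.0096 by edgeR). It lost its call without shTTC8 replicate 1 (0.0769; 0.0023 to 0.0769 over the alternatives). The other SK and IK genes, KCNN2, KCNN3 and KCNN4, had means of at most 1.06 CPM and were not called. KCNT2, a sodium-activated channel gene, was at 14.6 and 14.3 CPM in shTTC8, against 19.4 and 16.4 CPM in shScb (log2 fold change -0.31, SE 0.11, edgeR adjusted p = 0.0433). This was the call nearest to the threshold and was lost in 7 of 11 alternatives, including without any 1 of 3 libraries, shTTC8 replicate 1, shTTC8 replicate 2 or shScb replicate 1 (adjusted p = 0.0036 to 0.325). Its relative KCNT1 was at 23.8 and 25.5 CPM in shTTC8 and 19.8 and 23.7 CPM in shScb and was not called (edgeR adjusted p = 0.216; 0.0175 without shScb replicate 2 and 0.0175 to 0.783 over the alternatives).

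Inward rectifiers gave 3 higher and 0 lower of 6 tested genes, and 10 of the 16 KCNJ genes did not pass the filter. KCNJ8, which encodes Kir6.1, the pore of ATP-sensitive channels best known from vascular muscle, rose to 95.6 and 94.3 CPM in shTTC8, against 60.6 and 62.2 CPM in shScb (log2 fold change 0.63, SE 0.06, edgeR adjusted p = 3.08e-06). KCNJ8 (ENSG00000121361) lies on the minus strand of chromosome 12, from 21764955 to 21775581 in GRCh38. KCNJ11, which encodes the Kir6.2 pore of pancreatic and neuronal ATP-sensitive channels, was at 1.62 and 1.38 CPM in shTTC8, against 0.633 and 0.515 CPM in shScb (log2 fold change 1.38, SE 0.34, edgeR adjusted p = 0.0063). KCNJ12 (Kir2.2), a strong rectifier, was at 9.19 and 10.8 CPM in shTTC8, against 4.97 and 4.5995 CPM in shScb (log2 fold change 1.07, SE 0.15, edgeR adjusted p = 8.68e-05). KCNJ12 has a near-identical copy, KCNJ18 (23 counts in all), and is uncertain for that reason. The smooth muscle and heart markers summed to at most 1.4 CPM in any library. Among them ACTG2, which did not pass the filter, was at 0.180 and 0.604 CPM in shTTC8 and 0.0593 and 0.0368 CPM in shScb. Whether such cells had a part in the KCNJ8 levels was not tested.

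ATP-sensitive channels need a sulfonylurea receptor beside the pore subunit. ABCC9 (SUR2), the receptor gene next to KCNJ8, rose to 22.5 and 19.1 CPM in shTTC8, against 10.01 and 8.89 CPM in shScb (log2 fold change 1.14, SE 0.12, edgeR adjusted p = 3.99e-06). ABCC8 (SUR1), the receptor gene next to KCNJ11, was at 1.00 and 1.06 CPM in shTTC8 and 0.772 and 0.828 CPM in shScb, with no call (log2 fold change 0.37, SE 0.34).

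**Figure D5:**
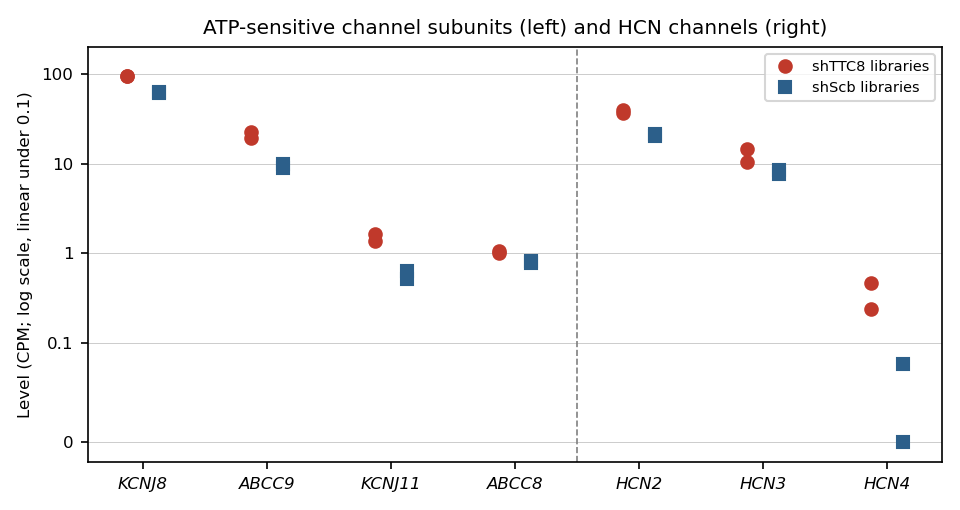
Level in CPM of ATP-sensitive channel subunits (left of the dashed line) and the 3 HCN genes called higher (right), with 1 point per library. Circles for shTTC8 stand left of squares for shScb, on a scale that is logarithmic above 0.1 and linear under it. All 7 genes drawn have both circles above both squares, ABCC8 by a small gap and without a call. The tested HCN gene that was not called is not drawn.

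Of 62 other genes of potassium transport and channel regulation, 55 were tested, and 14 were higher and 13 lower, with a median log2 fold change of -0.04. With scaling by library size alone the split was 17 higher and 9 lower, and without shTTC8 replicate 1 it was 9 higher and 9 lower. The called share was 49.1%, beside 31.9% of all tested genes and 39.2% of tested protein-coding genes. Of all tested genes with a mean of at least 5 CPM, 43.2% were called. HCN channels pass sodium and potassium on hyperpolarisation. Of the 4 HCN genes, all tested, 3 were higher, 0 were lower and 1 was not called. HCN2 rose to 39.8 and 36.5 CPM in shTTC8, against 20.4 and 21.4 CPM in shScb (log2 fold change 0.87, SE 0.09, edgeR adjusted p = 3.40e-06). HCN3 was at 14.7 and 10.5 CPM in shTTC8, against 8.45 and 7.58 CPM in shScb, and lost its call without shTTC8 replicate 1 (edgeR adjusted p = 0.142, and 5.18e-05 to 0.142 over the alternatives). HCN4 had 18 and 10 counts in shTTC8, against 4 and 0 counts in shScb, and missed the threshold without shScb replicate 2 (edgeR adjusted p = 0.154) and with no low-count filter (0.0884), in a range of 0.0051 to 0.154 over the alternatives.

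The sodium-potassium pump restores the potassium gradient. Of its 8 tested genes, 1 was higher, 3 were lower and 4 were not called. ATP1B1, a subunit gene among the lower ones, fell to 34.3 and 37.1 CPM in shTTC8, against 61.7 and 57.6 CPM in shScb (log2 fold change -0.74, SE 0.08). ATP1B1 shares 192 exonic bases with NME7, which had 45.3% of its counts. CNTNAP2, which clusters Kv1 channels along axons, fell to 4.35 and 4.42 CPM in shTTC8, against 11.9 and 11.6 CPM in shScb (log2 fold change -1.42, SE 0.14). PLCB1, a phospholipase that acts on the lipid which keeps M-channels open, fell to 56.2 and 63.0 CPM in shTTC8, against 124 and 115 CPM in shScb. CALM3, one of the calmodulin genes, rose by 0.60 on the log2 scale (SE 0.06), and the kinase gene STK39, which regulates cation-chloride cotransporters, fell by 0.52 (SE 0.06). Named after their values were seen, DPP6, an accessory subunit of Kv4 channels, was at 63.2 and 63.1 CPM in shTTC8, against 46.6 and 44.97 CPM in shScb (log2 fold change 0.46, SE 0.07). REST, which represses neuronal genes in non-neuronal cells, was at 7.72 and 6.86 CPM in shTTC8, against 12.7 and 11.96 CPM in shScb (log2 fold change -0.76, SE 0.13), and shares 23 exonic bases with the more abundant NOA1.

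The 34 tested members that were not called had log2 fold changes from -0.79 to 0.87, with standard errors of 0.08 to 0.74. The wide errors belong to genes of few counts, for which smaller changes were not detectable at this depth. Of the 35 tested members with a mean under 5 CPM, 6 were called. The called share of all tested genes at that level was not computed, so this count has no background beside it. Of the 37 members under the filter, 12 had 0 counts in every library: KCNA10, KCNC2, KCNIP1, KCNJ1, KCNJ15, KCNJ16, KCNK16, KCNK17, KCNK18, KCNMB1, KCNU1 and KCNV1. A count of 0 allows up to 3 counts in a library, or 0.0772 CPM in the shallowest one, by counting error alone. The other 25 had 2 to 35 counts over the 4 libraries, and in bulk RNA fewer cells with a transcript and less transcript per cell cannot be told apart.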

How the data were processed

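The authors deposited whole-number read counts per Ensembl gene, 1 column per library, with no normalization. The labels' protocols name TRIzol for extraction and an Illumina TruSeq RNA kit for library preparation. The submitters' processing notes name HISAT2 2.2.0 and hg38; which counter, strand setting and annotation were used is not given in the sources used here. Groups came from the sample titles.

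Symbols came from a gene name table, then GENCODE 29 (GRCh38), which gave positions, exons and gene types. The whole table was fitted with edgeR 4.0.16 in R 4.3.3 (filterByExpr, TMM scaling, robust quasi-likelihood F test, Benjamini-Hochberg over all tested genes at 0.05). CPM use TMM-scaled library sizes. A standard error is the absolute log2 fold change divided by the root of the F statistic. The fit was tested on simulated data. Total counts of 38284663 to 55331449 set the counting precision, and intervals and floors cover counting error only. Replicates were not repeat counts of 1 library (chi-square per degree of freedom 6.88 in shTTC8 and 12.5 in shScb).

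Other settings tried were scaling by RLE or by library size alone, no filter, a stricter filter (1 CPM in 2 libraries), DESeq2 1.42.0, limma-voom (limma 3.58.1), the replicate block, each library left out and a 2-fold minimum. A search of protein sequences was replaced by one of coding sequences. Named were TTC8, all called members (25), uncalled members with a mean of at least 5 CPM, the 8 called partner genes with the smallest p and markers of the labelled cell type; other named genes were chosen after their values were seen. A few genes of these lists are not reported here by name, though counts include them. The members and lists were chosen with earlier results of these data known.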

Additional observations from a re-analysis of the deposited data

How the results depend on the processing

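Of the 25 called potassium channel genes, 18 kept call and direction in all 11 alternatives, 7 lost the call in at least 1 (among them KCNAB2, KCND2, KCNH2, KCNH3, KCNN1 and KCNT2) and 0 reversed. Without 1 library each (a lone sample is then assumed to vary like the other group), 12 to 16 members were higher and 7 to 9 lower. Other partner genes gave 9 to 15 higher and 9 to 15 lower, and all tested genes 1880 to 3395 higher and 2383 to 3555 lower. The lowest counts of higher genes were those without shTTC8 replicate 1. With a 2-fold minimum, 6 members were higher and 3 lower, and 468 and 570 of all genes. Library size alone moved the split of partner genes to 17 higher and 9 lower. The uncalled KCNMB4 had a log2 fold change of -0.03, which reversed to 0.0097 with library size alone, and ran from -0.081 to 0.016 (without shScb replicate 1) with 1 library left out. The shared replicate numbers are not stated to mark a shared culture, and deviations of same-numbered libraries correlated at 0.032. The replicate block gave 16 members higher and 9 lower, partner genes 14 higher and 14 lower, and all genes 3092 higher and 3343 lower. DESeq2, run with its default filter on mean count, gave an adjusted p for 55 of the 59 tested members. The causes of these differences were not tested.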
